A study of Mus musculus with 8 samples.

Results

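The genes described here are 3 FoxO transcription factors (Foxo1, Foxo3 and Foxo4), 5 ubiquitin ligases or ligase subunits named for muscle atrophy (Fbxo32, Trim63, Fbxo30, Fbxo31 and Nedd4) and Murc. They make up 9 of the 24054 genes in the deposited table, and they were chosen by name, with their MI4KO and flox values and the values of MI4KO mouse 3 already known. Murc, now called Cavin4, encodes a muscle protein of the caveolae and is neither a FoxO factor nor a ubiquitin ligase, so the name FoxO factors and atrophy ubiquitin ligases covers 8 of the 9 genes. All 9 genes passed the filter on low values, set at 1 TMM-normalized CPM in 4 or more mice, and entered the comparison.

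The study asked what the transcription factor IRF4 does in skeletal muscle, and RNA-seq was performed on the soleus (SOL), a slow hindlimb muscle, of 4 MI4KO and 4 flox mice. MI4KO mice carried floxed Irf4 on both alleles and Cre knocked into Myl1, a myosin light chain gene of skeletal muscle fibers, and flox mice were littermates with floxed Irf4 and no Cre. All 8 mice were C57BL/6 males, the labels record a high fat diet for every mouse, and the age of the sequenced mice is not given in the sources used here. Mice are called 1 to 4 within a group, following the label numbers from low to high. Cre acted in the fibers alone, while whole muscle also holds endothelial, fibroblast, Schwann, satellite and blood cells, so that fewer cells of a type and less RNA per cell cannot be told apart in these values.

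FoxO factors are held in the cytoplasm when insulin or insulin-like growth factor activates AKT, which phosphorylates them. In fasting, denervation or glucocorticoid excess they enter the nucleus of muscle fibers and switch on genes of protein breakdown. The best known of these encode atrogin-1 (Fbxo32, also called MAFbx), the F-box subunit that brings substrates to an SCF ubiquitin ligase, and MuRF1 (Trim63), a RING ubiquitin ligase of the sarcomere. FoxO activity is set largely by phosphorylation and location, which RNA levels do not report.

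Depth was between 13417512 and 16384565 reads on genes per mouse. Muscle genes were abundant in every library, and summed values of 9 slow and common muscle markers lay between 80561 and 98446. Irf4 itself had a mean of 1.35 ± 0.451 (SD, n = 4) in flox SOL and of 0.715 ± 0.324 (SD, n = 4) in MI4KO SOL, on 4 to 23 reads per mouse, with flox mouse 1 at 0.686 inside the MI4KO range. A pair of libraries stood apart. Summed liver markers reached 176.8 in flox mouse 1, with the others at 6.31 to 15.7, and MI4KO mouse 3 was the highest of all 8 mice for 3666 of the 11865 genes tested (30.9%). In MI4KO mouse 3, 6 neutrophil markers with a row summed to 4.25, against 0.146 to 0.375 in the other mice. S100a8, S100a9 and Retnlg carried that sum, while Ngp and Camp were at 0 in that mouse and Mpo in every mouse. Results are given with and without MI4KO mouse 3, as was set when the genes were chosen, with its values known.

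Promoter sequence from RefSeq (GRCm38.p6, the mm10 build) covers 7 of the 9 genes, from 250 bases before to 50 bases after the transcription start. No window was available for Fbxo32 and Foxo4. The windows of Trim63, Foxo1 and Fbxo31 are shown because these 3 genes had the values of MI4KO mouse 3 farthest above the other mice. Capitals mark matches, on either strand, to the FoxO core motif TGTTTAC and to the glucocorticoid receptor palindrome, which is GAACA and, after any 3 bases, its reverse complement TGTTC. All are written 5′ to 3′ on the strand of the gene, at chr4:134314870-134315169 (plus strand) for Trim63, chr3:52268087-52268386 (plus strand) for Foxo1 and chr8:121578757-121579056 (minus strand) for Fbxo31.
Trim63: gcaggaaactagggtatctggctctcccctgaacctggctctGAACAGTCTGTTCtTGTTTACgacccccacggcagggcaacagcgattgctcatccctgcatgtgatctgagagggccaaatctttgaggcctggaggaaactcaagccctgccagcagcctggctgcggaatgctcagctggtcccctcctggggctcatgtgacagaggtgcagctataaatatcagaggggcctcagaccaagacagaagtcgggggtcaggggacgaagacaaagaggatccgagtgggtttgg
Foxo1: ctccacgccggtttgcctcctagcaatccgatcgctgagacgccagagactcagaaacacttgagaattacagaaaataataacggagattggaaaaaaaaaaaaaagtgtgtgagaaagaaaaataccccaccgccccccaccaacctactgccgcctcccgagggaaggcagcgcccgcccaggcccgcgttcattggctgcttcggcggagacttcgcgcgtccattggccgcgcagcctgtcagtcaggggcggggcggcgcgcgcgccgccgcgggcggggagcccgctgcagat
Fbxo31: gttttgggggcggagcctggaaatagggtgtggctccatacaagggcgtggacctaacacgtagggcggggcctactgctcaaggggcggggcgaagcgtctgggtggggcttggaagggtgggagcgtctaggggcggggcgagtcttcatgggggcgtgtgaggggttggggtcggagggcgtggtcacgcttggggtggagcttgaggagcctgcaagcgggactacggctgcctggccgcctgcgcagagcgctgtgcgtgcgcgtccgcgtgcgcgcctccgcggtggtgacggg
The Trim63 window held both motifs, the palindrome from 208 to 196 bases before the start and the FoxO motif from 194 to 188 bases before it, with 1 base between them and no overlap. Among all 32851 promoter windows of this length, 3.65% held TGTTTAC and 0.0578% held the palindrome. No other member window held either motif, the 2 windows of Nedd4 included, which says only that these letters are absent from these 300 bases. Both motifs were chosen with the expression values known, and a match is a description of the sequence.

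Of the FoxO factors, Foxo4 was the most abundant in SOL and Foxo3 the least, and Foxo1 was the factor that MI4KO mouse 3 set apart. Positions of genes are those of GENCODE M21 on GRCm38 (mm10). Foxo1 (chr3:52268336-52353221, plus strand), the family member best known for control of fuel use, was at 41.8, 29.3, 34.7 and 32.9 TMM-normalized CPM in flox mice 1 to 4 and at 29.1, 32.5, 123.6 and 37.1 in MI4KO mice 1 to 4. Apart from MI4KO mouse 3 the groups overlapped. That mouse was 3.75 times the median of the other 7 mice and 2.95 times the highest of them, and this ratio to the median ranked 28 among the 11865 genes tested. The log2 fold change of Foxo1, MI4KO over flox, was 0.40 (SE 0.34), and it was -0.07 (SE 0.11) without MI4KO mouse 3. The count tests on recovered reads put it higher over all 8 mice, at 0.67 in both edgeR and DESeq2, which is past a 1.5-fold change (adjusted p = 1.0 in each). In group means Foxo1 went from 55.6 ± 45.5 (SD, n = 4) to 32.9 ± 4.02 (SD, n = 3) in MI4KO mice, against 34.7 ± 5.27 (SD, n = 4) in the flox group.

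Foxo3 (chr10:42181841-42276755, minus strand), the factor most studied in muscle wasting and autophagy, was at 12.3, 6.38, 10.1 and 10.1 in flox mice and at 7.18, 10.4, 11.97 and 12.5 in MI4KO mice. MI4KO mouse 3 was inside the range of the other mice for Foxo3, and the groups overlapped. Foxo3 rested on 92 to 207 reads per mouse, the fewest of the 9 genes, and its coefficient of variation among flox mice was 25.4%. Its log2 fold change was 0.11 (SE 0.19), and 0.04 (SE 0.19) without MI4KO mouse 3.

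Foxo4 (chrX:101254528-101260873, plus strand), an X-linked factor with high RNA levels in muscle, was at 171.4, 154.6, 169.6 and 142.7 in flox mice and at 170.8, 145.7, 196.8 and 153.6 in MI4KO mice. MI4KO mouse 3 was again the highest mouse, here by 1.148 times the next, and the other 3 MI4KO mice lay among the flox mice. Foxo4 had a log2 fold change of 0.06 (SE 0.10) with that mouse and -0.03 (SE 0.08) without it.

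**Figure D1:**
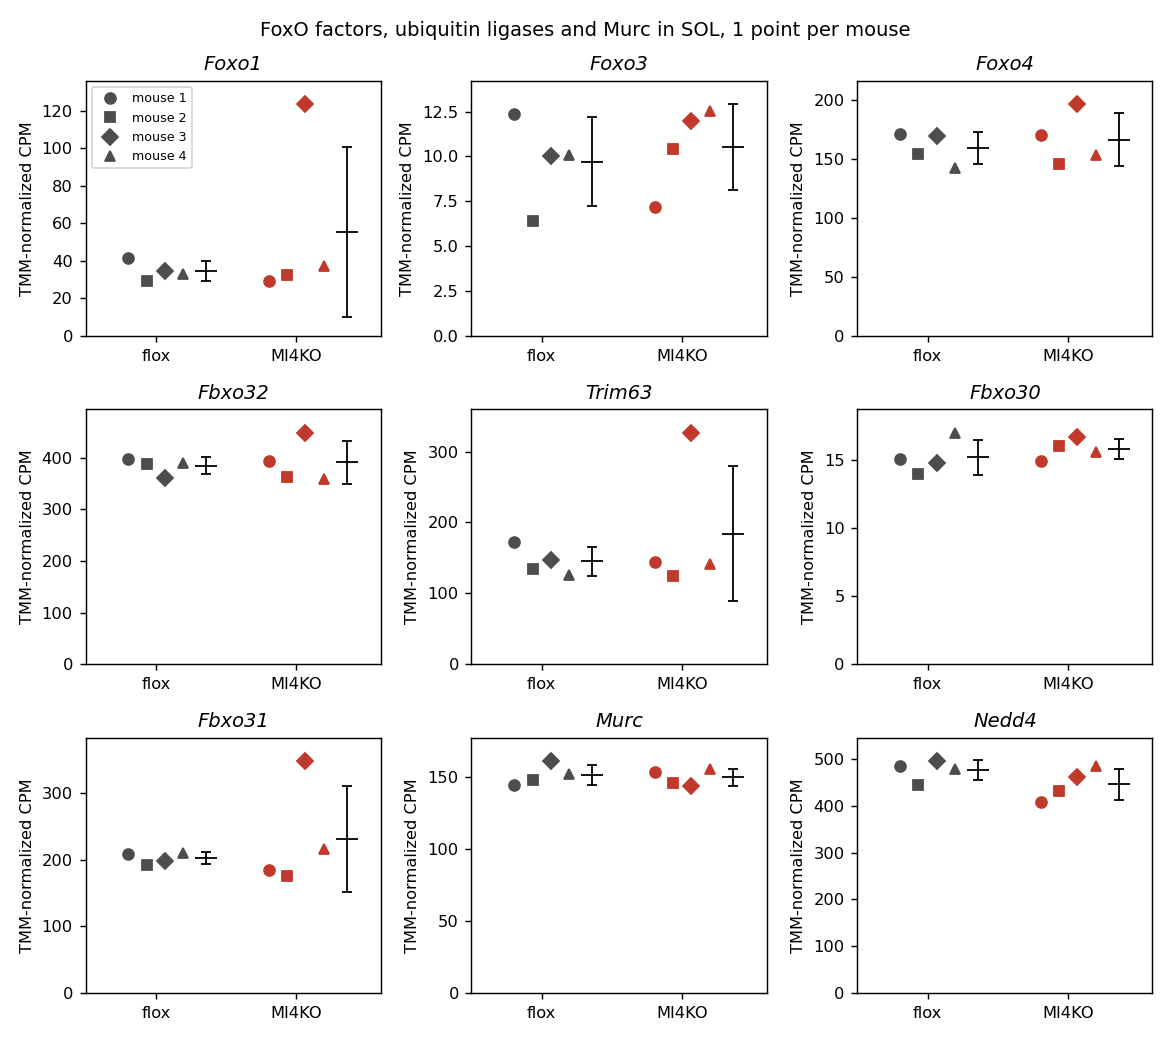
TMM-normalized CPM (vertical axis, from 0) of the 9 genes in SOL, with 1 point per mouse in flox (grey) and MI4KO (red) groups and mean ± SD at the right of each group. MI4KO mouse 3 (red diamond) lay far above the other mice for Foxo1 (123.6), Trim63 (326.5) and Fbxo31 (347.5), and within or near their range for the other 6 genes.

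Among the F-box genes, Fbxo31 was high in MI4KO mouse 3, and Fbxo32 and Fbxo30 were little set apart. Fbxo32 (chr15:58175879-58214932, minus strand) was at 397.6, 388.3, 360.4 and 389.7 in flox mice and at 392.7, 362.8, 448.1 and 358.9 in MI4KO mice. Its coefficient of variation among the 7 mice other than MI4KO mouse 3 was 4.51%, and MI4KO mouse 3 was 1.154 times their median. Fbxo32 had a log2 fold change of 0.02 (SE 0.08), and -0.05 (SE 0.07) without that mouse.

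Fbxo30 (chr10:11281330-11298052, plus strand) encodes MUSA1, an F-box protein held back by bone morphogenetic protein signaling in innervated muscle. Its values were 15.03, 13.9, 14.8 and 17.0 in flox mice and 14.9, 16.0, 16.7 and 15.6 in MI4KO mice, with its highest value in flox mouse 4. The log2 fold change of Fbxo30 was 0.05 (SE 0.09), and 0.03 (SE 0.09) without MI4KO mouse 3. Both groups covered much the same range.

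Fbxo31 (chr8:121549440-121578806, minus strand) encodes an F-box protein known from cell cycle control and from its rise with FoxO activity in muscle. It was at 208.9, 192.1, 198.1 and 210.1 in flox mice and at 184.5, 175.5, 347.5 and 215.1 in MI4KO mice. MI4KO mice 1 and 2 were the lowest of all 8, and MI4KO mouse 3 was the highest, at 1.62 times the next mouse and 1.75 times the median of the other 7. Fbxo31 had a log2 fold change of 0.13 (SE 0.17) with that mouse and -0.08 (SE 0.08) without it.

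Trim63 (chr4:134315120-134329629, plus strand), the RING ligase MuRF1 whose promoter is shown above, was at 172.8, 135.1, 146.8 and 125.9 in flox mice. In MI4KO mice it was at 144.4, 124.4, 326.5 and 141.8. MI4KO mouse 3 was 2.30 times the median of the other mice and 1.89 times the highest of them, flox mouse 1, while the other MI4KO mice lay within or just below the flox range. The rank of that ratio among all genes tested was 103. The log2 fold change of Trim63 was 0.24 (SE 0.24), and -0.08 (SE 0.10) without MI4KO mouse 3. The flox group had a Trim63 mean of 145.1 ± 20.3 (SD, n = 4). The MI4KO group had 184.3 ± 95.2 (SD, n = 4), or 136.9 ± 10.8 (SD, n = 3) without MI4KO mouse 3.

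Nedd4 (chr9:72662346-72749852, plus strand), a HECT ubiquitin ligase of growth factor receptors and membrane proteins, was at 485.6, 445.1, 495.5 and 478.5 in flox mice and at 409, 431.6, 461.1 and 484.7 in MI4KO mice. MI4KO mice 1 and 2 were below every flox mouse and MI4KO mice 3 and 4 were among them. Its log2 fold change was -0.09 (SE 0.07), and -0.11 (SE 0.07) without MI4KO mouse 3, which lay near the middle of the values here. Nedd4 was the member whose sign stayed negative whichever mouse was left out, between -0.13 and -0.05.

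Murc (chr4:48663514-48673502, plus strand) was at 144.5, 148.2, 161.3 and 152.4 in flox mice and at 153.9, 146.4, 143.9 and 155.8 in MI4KO mice. It was the steadiest of the 9 genes among the 7 mice other than MI4KO mouse 3, with a coefficient of variation of 3.87%, and the only member with its lowest value in MI4KO mouse 3. The log2 fold change of Murc was -0.02 (SE 0.07), and 0.00 (SE 0.07) without that mouse, both well within the error. Its sign was positive under median-of-ratios and library size scaling, which moved the median of all genes from -0.01 to 0.00 and 0.03.

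Over the 9 genes, 7 log2 fold changes were above 0 and 2 below, with a median of 0.06, against a median of -0.01 over all 11865 genes tested. Without MI4KO mouse 3, 3 were above 0 and 6 below, and the median was -0.05, against -0.04 over all genes. None of the 9 passed an absolute fold change of 1.5 with an unadjusted p under 0.05 by limma, or that p alone, and 26 genes passed both limits (0.219% of those tested), while 399 passed the p alone. The paper's own edgeR comparisons, at a fold change of 1.5 and p under 0.05, list Foxo1 among genes altered in SOL and in gastrocnemius. In SOL the paper compared MI4KO with flox mice. In gastrocnemius it compared MI4KO with mice that overexpress IRF4 in muscle, so that list is no comparison with flox. The edgeR quasi-likelihood test on recovered reads gave Foxo1 an unadjusted p of 0.108 in SOL. At a Benjamini-Hochberg adjusted p under 0.05 limma called 0.0% of genes. edgeR and DESeq2 on recovered reads called 0 as well, with 363 and 248 genes at an unadjusted p under 0.05. The values of MI4KO and flox mice were free of overlap for 0 of the 9 genes and for 2.07% of all genes. Leaving MI4KO mouse 3 out gave 0 of 9 members past the limits, with 0.270% of all genes past them, and 0 of 9 without overlap, with 5.25% of all genes so. Since the genes were selected on this contrast, nothing is read from these counts. Removal of flox mouse 1 as well left the 9 log2 fold changes between -0.10 (Nedd4, SE 0.08) and 0.16 (Foxo3, SE 0.20).

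**Figure D2:**
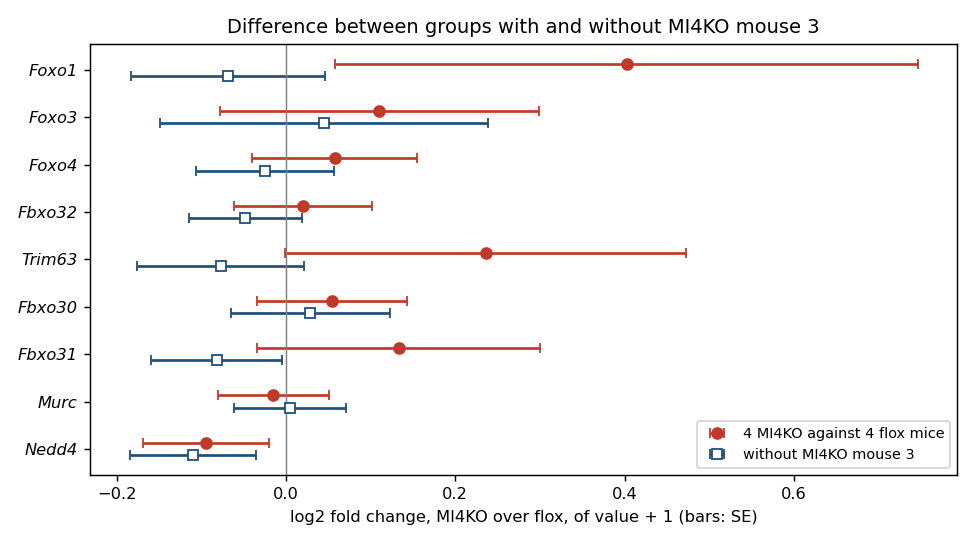
Log2 fold change of value + 1, MI4KO over flox (horizontal axis, bars give the SE from limma), for all 8 mice (red circles) and without MI4KO mouse 3 (open blue squares). Foxo1, Trim63 and Fbxo31 moved from 0.40, 0.24 and 0.13 to -0.07, -0.08 and -0.08 when that mouse was left out, and the other 6 genes moved by less than their SE over all 8 mice.

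MI4KO mouse 3 was the highest mouse for 5 of the 9 genes (Foxo1, Foxo4, Fbxo32, Trim63 and Fbxo31), where it was the highest for 30.9% of all genes. It was at least 1.5-fold above the median of the other 7 mice for 3 of the 9, against 4.37% of all genes, and these values were known when the genes were chosen. No other mouse was 1.5-fold above the median of the remaining mice for any member. Of the other members, Murc and Fbxo30 were highest in flox mice 3 and 4, Nedd4 in flox mouse 3 and Foxo3 in MI4KO mouse 4. The summed neutrophil markers were also highest in MI4KO mouse 3, at 4.25, and their part in the values was not tested.

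Per kilobase of exon, the members fell into 3 tiers in flox mice, whose order does not depend on MI4KO mouse 3. Trim63 (77.0 CPM per kb, range 66.8 to 91.6) and Murc (73.8, range 70.3 to 78.5) stood highest and overlapped each other. Below them came Fbxo32 at 55.0 (51.7 to 57.0), Nedd4 at 51.9 (48.5 to 54.0), Foxo4 at 50.5 (45.1 to 54.2) and Fbxo31 at 46.4 (44.1 to 48.2), where each overlapped its neighbor. Foxo1 at 4.002 (3.38 to 4.83), Fbxo30 at 2.92 (2.68 to 3.27) and Foxo3 at 1.31 (0.862 to 1.67) made the lowest tier, in which no neighbors overlapped. Lengths are the summed protein-coding exons of each gene in GENCODE M21, so a gene whose muscle transcript is shorter than that sum is understated.

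**Figure D3:**
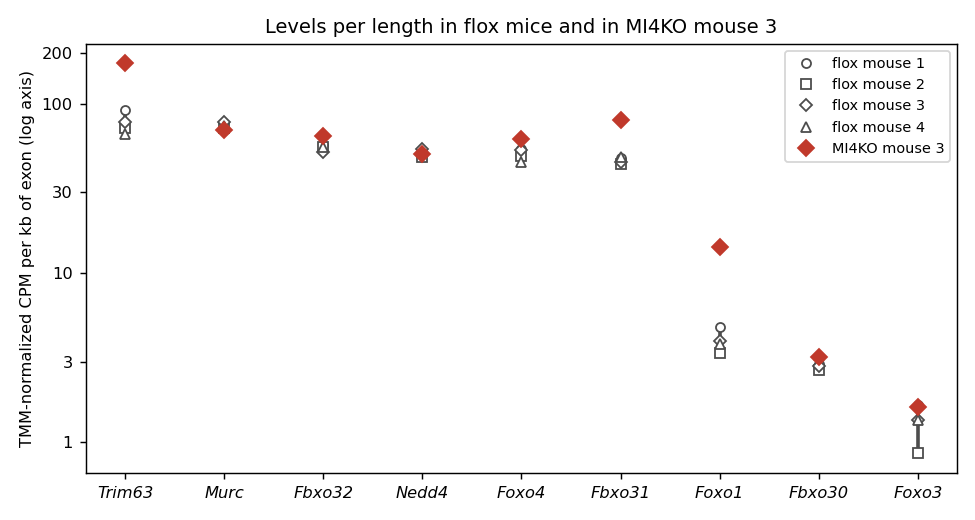
TMM-normalized CPM per kb of exon (vertical log axis) of each gene in the 4 flox mice (open symbols, with a line over their range) and in MI4KO mouse 3 (red diamond). Trim63 and Murc stood highest in flox mice, at 77.0 and 73.8, and Foxo3 lowest, at 1.31, and the red diamond left the flox range most for Foxo1, Trim63 and Fbxo31.

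Across the 8 mice, 36 pairs of members were compared on log2(value + 1). The same mouse values had guided the choice of the genes, so the p-values are not independent evidence. Foxo1 and Trim63 had r = 0.968, which was 0.104 without the 2 mice farthest from the median of Foxo1 and 0.645 without MI4KO mouse 3, so that this relation rested largely on the extreme mice. Foxo1 and Fbxo31 had r = 0.967, which was 0.617 without the 2 farthest mice and 0.640 without MI4KO mouse 3. Spearman's rho of Foxo1 and Fbxo31 was 0.810 over 8 mice and 0.714 without that mouse.

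Foxo4 and Trim63 varied together with less weight on a single mouse. Their Pearson r was 0.882 (exact two-sided permutation test, p = 0.000223, adjusted p = 0.00804 over the 36 pairs) and Spearman's rho was 0.929 (exact permutation p = 0.00223, adjusted p = 0.0804). Without the 2 mice farthest from the median of Foxo4, r was 0.807, and without MI4KO mouse 3 it was 0.847 (exact permutation p = 0.00893, adjusted p = 0.161). This was the only pair with an adjusted p under 0.05 by r, among 6 with an unadjusted p under 0.05 by exact permutation, and no pair passed by rho or without MI4KO mouse 3. With the group means removed, an alternative chosen after seeing the data, Foxo4 and Trim63 had r = 0.878 (p = 0.00174, the smallest that exact permutation of mice within groups allows, adjusted p = 0.0625), and 0 of the 36 pairs had an adjusted p under 0.05, against 4 at an unadjusted p under 0.05. Foxo1 and Foxo3 had r = 0.516 over all 8 mice and 0.894 without MI4KO mouse 3 (exact permutation p = 0.00873, adjusted p = 0.161), with rho at 0.786 both times, since that mouse was high for Foxo1 and ordinary for Foxo3.

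**Figure D4:**
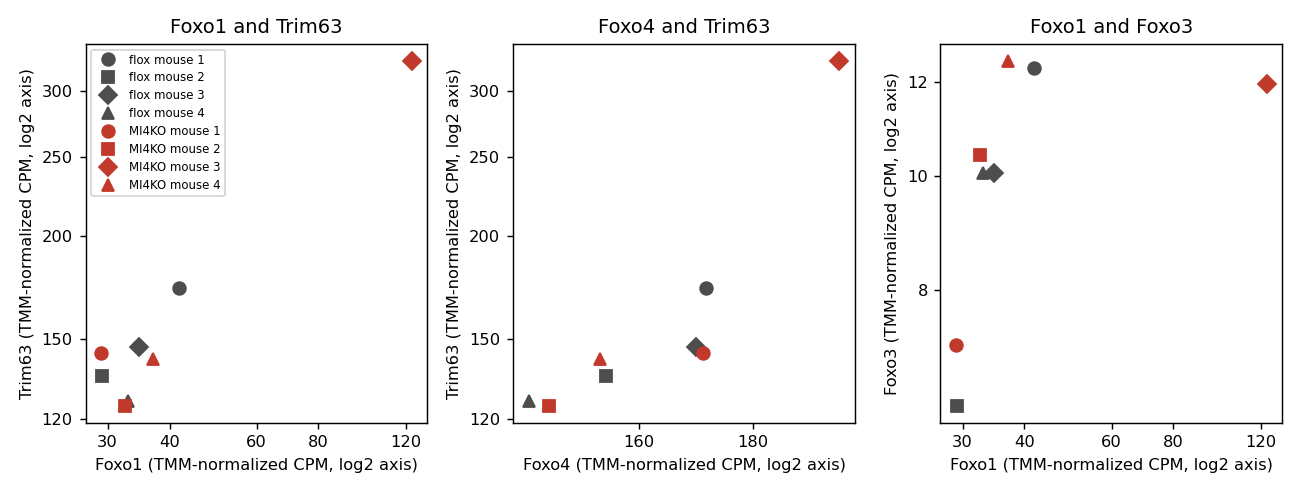
TMM-normalized CPM of 3 pairs of members on log2 axes, with 1 point per mouse (flox grey, MI4KO red, mouse number by shape). In the pair of Foxo1 and Trim63 a single point, MI4KO mouse 3, stands apart from a loose group (r = 0.968, and 0.645 without it), while mice with more Foxo4 had more Trim63 with or without it (r = 0.882 and 0.847), and Foxo3 does not follow Foxo1 in that mouse.

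The genes most like Foxo1 over the 8 mice were Sdc4 (r = 0.995), Ccrn4l (0.991), Prodh (0.989), Mff (0.984) and Wbp1l (0.984), among 62 genes with r over 0.95. They share the high value of MI4KO mouse 3: Sdc4, a cell surface proteoglycan, was at 119.2 there against 36.3 to 51.8 elsewhere, and Ccrn4l, which encodes the circadian protein nocturnin, was at 48.8 against 19.9 to 26.0. Mff, which recruits the fission protein DRP1 to mitochondria, was also highest in that mouse, over a narrow range, at 91.3 against 79.2 to 81.2. Without MI4KO mouse 3 the list was another, 4932438A13Rik, Zfp462, Kbtbd2, Rrp8 and Aak1 (r from 0.995 to 0.973 over 7 mice), and 17 genes passed 0.95. For Trim63 the closest genes over 8 mice were Dnaja3, Wdr92, Mad2l1bp, Map1lc3b and Isca1 (r from 0.990 to 0.980). Map1lc3b, the autophagosome protein LC3B and a known FoxO target, was at 258.7 in MI4KO mouse 3, where the others were at 179.3 to 199.7. Without that mouse they were Synm, Zfp598, Rnf2, Ergic1 and Zfyve9 (r from 0.965 to 0.945). Those closest to Fbxo32 were Spryd7, Ctage5, 6030419C18Rik, Hoxc9 and Tssc4 (r from 0.986 to 0.948), and Spryd7 and Hoxc9 were again among the closest without MI4KO mouse 3, with r of 0.958 and 0.966. All values come from the same libraries and share their scaling, and the best of all genes tested over so few mice is high by selection.

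The genes around the FoxO factors were described from lists of their regulators, targets and partners. Of the 125 distinct genes on the lists, 3 fell below the filter. Of those tested, 0 passed the limits, and 4 (3.28%) had values free of overlap, against 2.07% of all genes. All 4 were lower in MI4KO mice: Foxo6, Wwp2, Ptrf and Sdpr.

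Among 25 regulators of FoxO, 24 were tested, of which 13 had log2 fold changes above 0 and 11 below, with a median of 0.01. Foxo6, the family member that stays in the nucleus, was at 14.9, 18.8, 14.7 and 20.9 in flox mice and at 14.5, 14.3, 14.0 and 14.6 in MI4KO mice. Every MI4KO value was below every flox value, the closest pair being 14.6 and 14.7, with a log2 fold change of -0.24 (SE 0.11) that was -0.23 (SE 0.12) without MI4KO mouse 3. In MI4KO mouse 3, 3 of the 24 regulators (12.5%) were at least 1.5-fold above the median of the other mice, against 4.37% of all genes. Sgk1, a kinase that phosphorylates FoxO factors, was at 117.1 there against 24.8 to 68.4 in the others, and Pik3r1, the regulatory subunit of PI3-kinase, was at 82.3 against 41.4 to 60.5. Irs2, an insulin receptor substrate, was at 35.6 against 12.8 to 44.0, inside the range of the others. Irs1 went the other way, at 26.1 in that mouse against 35.7 to 55.2. Akt1, the kinase that holds FoxO in the cytoplasm, had a log2 fold change of 0.10 (SE 0.09). Skp2 was under the limit on low values.

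Of 24 FoxO targets, all tested, 12 had log2 fold changes above 0 and 12 below (median 0.00), and none passed the limits. The lowest and highest log2 fold changes were those of Cited2, at -0.29 (SE 0.15), and Ppargc1a, at 0.38 (SE 0.32). In MI4KO mouse 3, 5 of the 24 were at least 1.5-fold above the median of the other mice (20.8%, against 4.37% of all genes). They were Cdkn1a, the cell cycle inhibitor p21, at 49.9 against 12.5 to 16.2, Ppargc1a, the mitochondrial coactivator PGC-1α, at 101.2 against 28.5 to 76.7, Klf15, a glucocorticoid-induced factor of amino acid breakdown, at 94.7 against 43.1 to 62.3, Sesn1 at 36.9 against 21.1 to 31.1, and Irs2. Over all 24 targets the median ratio of that mouse to the median of the others was 1.04. Of these targets 8 (33.3%) were highest in it, near the 30.9% of all genes, and 3 were lowest. Pdk4, a kinase that blocks pyruvate oxidation, was at 1.47 times the median of the others and Map1lc3b at 1.38 times. Bnip3, a mitophagy receptor, was at 0.986 times, Gabarapl1, an autophagy protein, at 0.947 times and Cited2, a coregulator, at 0.596 times. Klf15 and Sgk1 also stand in the glucocorticoid list. There, 11 of 15 genes (73.3%) in MI4KO mouse 3 were at least 1.5-fold above the median of the other mice, against 4.37% of all genes. Of the same 15 genes, 14 (93.3%) were highest in that mouse, against 30.9% of all genes. In that list Fkbp5, a chaperone partner of the glucocorticoid receptor, was at 158.6 against 19.4 to 31.2, and Mt2, a metallothionein, at 59.6 against 1.67 to 7.63. Dusp1, a phosphatase, was lowest of the list in log2 fold change, at -0.23 (SE 0.16). Of 13 clock genes tested, 2 (15.4%) were at least 1.5-fold above that median in MI4KO mouse 3, against 4.37% of all genes. Dbp was at 53.7 there against 108.8 to 169.9, with a log2 fold change of -0.51 (SE 0.25), while Per2 had 0.10 (SE 0.12), the highest of that list. The part of the glucocorticoid and clock genes in the values of Foxo1, Trim63 and Fbxo31 was not tested.

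**Figure D5:**
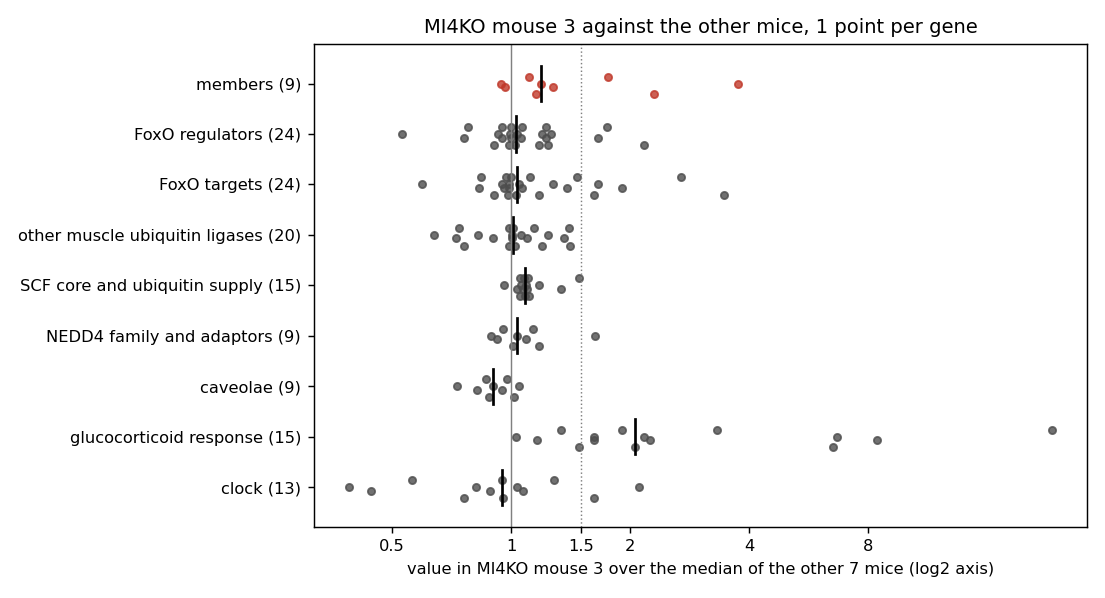
Value in MI4KO mouse 3 over the median of the other 7 mice (horizontal log2 axis), with 1 point per tested gene, the median of each list as a bar and the dotted line at 1.5. The members reach 3.75 (Foxo1). At or past 1.5 lie 11 of 15 glucocorticoid response genes, 5 of 24 FoxO targets and 3 of 24 FoxO regulators. So do 2 of 13 clock genes and 1 of 9 genes of the NEDD4 list (Hecw2), where 4.37% of all genes do. No gene of the other ubiquitin ligases, the SCF list or the caveolae list does.

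The relatives of the ligases were closer to the median of all mice than Trim63 and Fbxo31 were. None of 20 other muscle ubiquitin ligases was 1.5-fold above the median of the other mice in MI4KO mouse 3, against 4.37% of all genes. None passed the limits, with 9 log2 fold changes above 0 and 11 below (median -0.01). Trim54 (MuRF3), a close relative of Trim63, was at 517.5 in that mouse against 432.9 to 503.9 in the others, and Trim55 (MuRF2) was at 31.9 against 27.2 to 37.0. Their log2 fold changes were 0.00 (SE 0.08) and -0.05 (SE 0.10). Fbxo25, the closest relative of Fbxo32, was at 6.32 in MI4KO mouse 3 against 8.64 to 10.9 and had the lowest log2 fold change of that list, -0.25 (SE 0.13), while Mul1, a mitochondrial ligase, had the highest, 0.07 (SE 0.09). Fbxo40, a muscle F-box protein that acts on IRS1, had -0.07 (SE 0.13). The core of the SCF ligase and the supply of ubiquitin, 15 genes, had 11 log2 fold changes above 0 and 4 below (median 0.03), from -0.06 (SE 0.08) for the RING subunit Rbx1 to 0.11 (SE 0.08) for Zfand5, a proteasome activator.

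Of 10 relatives and adaptors of Nedd4, 9 were tested, with 4 log2 fold changes above 0 and 5 below (median -0.02) and none past the limits, and Hecw1 was listed at 0 in every mouse. Wwp2 was at 31.2, 29.0, 29.8 and 31.8 in flox mice and at 27.1, 28.8, 27.7 and 26.8 in MI4KO mice, lower in every MI4KO mouse, with a log2 fold change of -0.14 (SE 0.07). Nedd4l, the closest relative, had the lowest value of this list, -0.22 (SE 0.11), and Wwp1 the highest, 0.10 (SE 0.09).

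Murc itself did not differ beyond its error, while 8 of 9 other caveolae genes had log2 fold changes below 0, with a median of -0.19 (-0.20 without MI4KO mouse 3) against -0.01 over all genes. None passed the limits, and 4 had an unadjusted p under 0.05 by limma (Sdpr, Ehd2, Ptrf and Cav1), against 399 of all 11865 genes tested. None had an adjusted p under 0.05, and the list was chosen with earlier results of these data known. Sdpr, which encodes cavin-2, was at 54.1, 59.9, 59.95 and 65.7 in flox mice and at 41.1, 49.8, 39.4 and 51.6 in MI4KO mice, which gave a log2 fold change of -0.40 (SE 0.10). Ptrf, the cavin that all caveolae need, was at 219.3, 220.2, 240.0 and 219.2 in flox mice and at 172.1, 200.5, 208.0 and 214.9 in MI4KO mice, which gave a log2 fold change of -0.18 (SE 0.08). For both genes the highest MI4KO value was below the lowest flox value. Cav3, the muscle caveolin that shares the fiber membrane with the Murc protein, had -0.09 (SE 0.08), and Pacsin2, a membrane-bending protein, had 0.00 (SE 0.10). Summed over 5 endothelial markers, values ran from 299.0 to 351.1 in flox SOL and from 224.1 to 311.4 in MI4KO SOL, with all 5 log2 fold changes below 0, and their part in the caveolae values was not tested.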

How the data were processed

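RNA of SOL from 4 MI4KO and 4 flox mice was sequenced by the authors as stranded poly(A) libraries with single reads. Per the labels and the methods, reads were mapped with Bowtie2 2.1.0 to UCSC transcripts (mm10), quantified with RSEM 1.2.15 and scaled by TMM after base calling with bcl2fastq 2.17. Each gene of each mouse thus has a deposited signal in TMM-normalized CPM. The deposited fold changes, p-values and FDR of the authors' own comparison were not used.

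The members and all gene lists were chosen with earlier results of these data known. Groups were compared with limma 3.58.1 (R 4.3.3, mean-variance trend) on log2(value + 1), for genes that reached 1 in 4 or more of the 8 mice. The fold change on this scale understates low genes. The limits were an absolute fold change of 1.5 or more and an unadjusted p under 0.05. All non-zero values (100%) were whole multiples, within 0.1 read, of the worth of 1 read, and alternatives with these recovered reads used edgeR 4.0.16 and DESeq2 1.42.0. At 13417512 to 16384565 reads per mouse, 3 reads were worth 0.181 to 0.225, which covers counting error only. The lowest, highest and non-overlapping genes of each list were named, with 5 genes most like Foxo1, Fbxo32 and Trim63 and their close relatives, and further list genes high in MI4KO mouse 3, with Map1lc3b, Pdk4, Bnip3, Gabarapl1, Irs1, Akt1, Cav1, Cav3, Ehd2, Skp2 and Hecw1, were chosen after their values were seen. Pairs of members were compared by exact permutation over mice (scipy 1.17.1). Each mouse is 1 sample, the libraries of any pair differed by a chi-square of 6.06 or more per degree of freedom over genes, and nothing in the labels marks a batch. Positions and exon lengths are from GENCODE M21, and promoters from RefSeq. The steps were tested on data with known changes. Alternatives were other pseudocounts, filters, scalings, limma settings, the range of mouse numbers as a term, the count tests and each mouse left out.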

Additional observations from a re-analysis of the deposited data

Results flagged for a closer look

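In groups of 4 mice, the distance of the highest or lowest mouse from its neighbor, divided by the spread from lowest to highest on the log2 scale (gap), was set against Dixon's 95% critical value. Of 62 groups examined, 7 passed. Chance gives about 1 in 20 unselected groups, a rate that does not apply here, since the members were chosen with these values known and many list genes were named for extreme or non-overlapping values. The gaps are given as descriptions. Among the 18 groups of the 9 genes, 2 passed, both in MI4KO mouse 3: Foxo1 at 123.6 (gap 0.834) and Trim63 at 326.5 (gap 0.847). The other 5 lay in flox mice. Flox mouse 1 was low for Fbxo25 (8.73, gap 0.955) and Dbp (108.8, gap 0.830). Flox mouse 2 was low for Pacsin2 (113.3, gap 0.843) and Fbxo40 (139.9, gap 0.861). Flox mouse 3 was high for Ptrf (240.0).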

How the results depend on the processing

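No paired analysis was possible because the labels give the groups no shared replicate numbers. Leaving out MI4KO mouse 3 turned the sign of 6 of the 9 genes in limma, to below 0 for Foxo1, Foxo4, Fbxo32, Trim63 and Fbxo31 and to above 0 for Murc. With each mouse left out in turn, log2 fold changes ranged from -0.0688 to 0.6145 for Foxo1, -0.0579 to 0.2661 for Foxo3 (negative without flox mouse 2), -0.0251 to 0.1185 for Foxo4, -0.048 to 0.0586 for Fbxo32, -0.0771 to 0.3845 for Trim63, -0.0821 to 0.2453 for Fbxo31 and -0.0377 to 0.015 for Murc. With all 8 mice, edgeR and DESeq2 gave Foxo1 0.6672 and 0.6693, against 0.4023 in limma. Without MI4KO mouse 3 in edgeR and DESeq2, an alternative chosen after seeing the data, Foxo4 stayed above 0, at 0.0178 and 0.0189. Values there were -0.0300 and -0.0288 for Foxo1, -0.0048 and -0.0036 for Fbxo32, -0.0416 and -0.0403 for Trim63, -0.0344 and -0.0329 for Fbxo31 and 0.0489 and 0.0505 for Murc. Without that mouse and flox mouse 1, limma gave values above 0 for Foxo1 (0.023), Foxo4 (0.0103) and Trim63 (0.0097). Fbxo32 was then at -0.0309, Fbxo31 at -0.0664 and Murc at -0.018. Murc was at 0.0055 and 0.0291 under median-of-ratios and library size scaling, a shift much like that of the median of all genes, and at 0.0025 and 0.0050 in edgeR and DESeq2. Fbxo30 stayed above 0 and Nedd4 below 0 under all 22 alternatives. None of the 9 genes passed the limits in any of them.

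Genes past the limits numbered 26, and 71 and 41 with pseudocounts of 0.1 and 0.5, 13 with robust estimation, 65 in edgeR, 51 in DESeq2, 41 without both MI4KO mouse 3 and flox mouse 1, and 72 and 47 in edgeR and DESeq2 without MI4KO mouse 3. They ranged from 19 to 58 with each mouse left out, with 58 without MI4KO mouse 4. The cause was not tested. List genes past the limits numbered 0, with 2 in edgeR (Mt1 and Mt2), 1 in DESeq2 (Mt2) and 0 to 2 (Dbp and Ppargc1a) with each mouse left out. Of the 9 genes Foxo3 had the fewest reads, 92 to 207 per mouse, and Irf4 and the neutrophil markers rested on fewer still.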
